A study of Mus musculus with 40 samples.

Results

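The mitochondrial genome of the mouse codes for 13 mRNAs, 2 ribosomal RNAs (rRNAs) and 22 transfer RNAs (tRNAs). These 37 transcripts, taken as every row whose gene symbol starts with mt-, were followed here among the 47729 rows of a gene expression table of the mouse mammary gland. The 13 mRNAs and both rRNAs had counts, as did 18 of the 22 tRNAs. Balb/cJ mice were ovariectomised at 21 days of age, recovered for 7 days, and then ate the AIN 93G control diet, the same diet with 2.7% conjugated linoleic acid (CLA), or the control diet while drinking water that held 200 nM estrogen. The number 4 inguinal mammary gland was taken without its lymph node. There were 8 groups of 5 mice: control and estrogen at 60 h and at 84 h, and control and CLA at 108 h and at 132 h. All mice, controls included, lacked ovaries, and no sham-operated group was among the samples. Each comparison of a treatment with its control therefore asked how the gland without ovarian hormones responded at that time.

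Mitochondrial DNA is transcribed from both strands as long precursors, and the tRNAs lie between the mRNAs and rRNAs like punctuation, so that their excision frees the neighbouring transcripts. All mitochondrial mRNAs encode subunits of the respiratory chain and of ATP synthase, which also need many subunits encoded in the nucleus. Brown fat, muscle and other tissues with high oxidative capacity carry much of this RNA, and the ovariectomised gland is mostly a fat pad with a rudimentary epithelial tree.

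The libraries were stranded and made from poly(A) RNA, which selects against tRNAs and other RNAs without a poly(A) tail, so levels are compared within a class and between samples. Total counts per library ran from 18183713 to 40026800. In 11 libraries the mean level of skin and hair marker genes, mostly keratins, was high (1.53 log2 CPM or more, against 0.637 or less in the others): among controls 1 at 84 h and 3 at each of 108 h and 132 h, among estrogen mice 1 at 60 h and 3 at 84 h, and no CLA library. The mouse numbers in the labels fall into 4 separate runs. All estrogen mice were in the fourth run and no control mouse was, so run and estrogen cannot be told apart, whereas CLA and control mice shared runs. The labels give separate animals; what a run of numbers stands for is not stated.

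Of the 37 genes, 28 are transcribed in the direction of the plus strand and 9, mt-Nd6 and 8 tRNAs, in that of the minus strand. Levels per transcript length were compared as RPKM (reads scaled by transcript length and by the reads of the library), averaged over all 40 libraries. mt-Atp6, a subunit of ATP synthase, had the highest mean RPKM at 25111 (range 10071 to 34032), and it ranked first among the mRNAs in 39 of 40 libraries. mt-Co1, the catalytic subunit of cytochrome c oxidase, followed at 19678 RPKM (11004 to 27357) and ranked first in the remaining library. Next in mean RPKM came mt-Co3 at 14701, mt-Cytb at 12501, mt-Co2 at 10500, mt-Nd4 at 8905 and mt-Nd1 at 7369. These orders overlapped between libraries: mt-Co3 ranked 3 to 4, mt-Cytb 3 to 5, mt-Co2 4 to 6, mt-Nd4 5 to 7 and mt-Nd1 6 to 7. mt-Nd3, a small subunit of complex I, was lowest at 2439 RPKM. The large rRNA, mt-Rnr2, and the small rRNA, mt-Rnr1, had mean RPKM of 2889 and 2703, which in a poly(A) library is not their abundance in the cell.

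**Figure D1:**
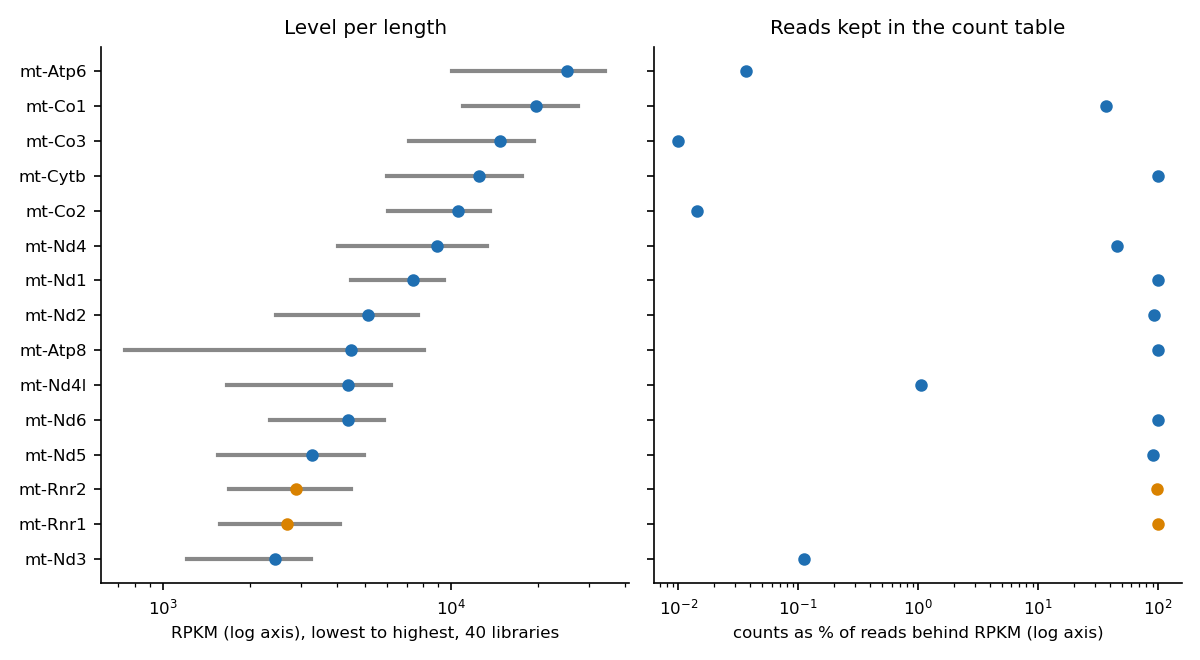
Left, mean RPKM (log axis) of the 13 mRNAs and 2 rRNAs of the mitochondrial genome over 40 libraries, with bars from the lowest to the highest library. Right, the counts of each as a percentage (log axis) of the reads behind its RPKM: mt-Atp6, mt-Co2, mt-Co3, mt-Nd3 and mt-Nd4l sit near or below 1%, while mt-Cytb, mt-Nd1, mt-Atp8, mt-Nd6 and mt-Rnr1 sit at about 100%.

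For 5 mRNAs the deposited counts held almost none of the reads that the RPKM values held. Counts made up 0.0369% of the reads behind the RPKM of mt-Atp6, 0.0100% for mt-Co3, 0.0144% for mt-Co2, 0.112% for mt-Nd3 and 1.06% for mt-Nd4l. The share was 36.8% for mt-Co1 and 45.9% for mt-Nd4, and 99.99% for mt-Cytb. The same transcripts have near-identical nuclear copies in 1 block of chromosome 1 (GRCm38, 24611535 to 24616197, minus strand, 4663 bases). Of its 7 copies of at least 99% identity, 5 had no mismatch to the mitochondrial gene: Gm10925 for mt-Atp6, Gm28661 for mt-Co2, Gm28437 for mt-Co3, Gm10222 for mt-Nd4l and Gm28439 for the first 876 bases of mt-Nd4. Over 4140 aligned bases the block held 2 mismatches in all, 1 in the copy of mt-Nd3 and 1 in the 483-base copy of mt-Co1.

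The windows around those mismatches are shown because they hold the bases by which a read could be assigned to one copy. The capital marks the differing base. In mt-Nd3 it is T3C and in mt-Co1 it is A1066T, the mitochondrial base first and the position counted from 1 at the 5′ end of the mitochondrial gene. The sequences are from the GENCODE vM21 transcripts on GRCm38. The windows are chrMT:9459-9548 for mt-Nd3 with chr1:24613030-24613119 (minus strand) for its copy, and chrMT:6390-6479 for mt-Co1 with chr1:24616099-24616188 (minus strand) for its copy.
mt-Nd3: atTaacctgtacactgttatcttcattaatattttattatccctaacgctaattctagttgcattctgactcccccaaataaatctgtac
Gm28438: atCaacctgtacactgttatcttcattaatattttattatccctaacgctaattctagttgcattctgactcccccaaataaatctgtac
mt-Co1: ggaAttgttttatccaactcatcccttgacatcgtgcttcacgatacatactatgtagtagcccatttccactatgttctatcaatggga
Gm29216: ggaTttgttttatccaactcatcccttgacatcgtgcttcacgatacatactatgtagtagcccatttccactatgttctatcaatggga

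Of the copies, 4 carried high RPKM. Gm10925 had a mean RPKM of 1130 (216 to 2150), Gm28437 of 911 (243 to 1931), Gm28661 of 441 (185 to 1764) and Gm28438 of 281 (49.7 to 756). Gm10222 had a mean RPKM of 10.4, Gm29216 of 0.719 and Gm28439 of 0.237. The mean counts of the 7 copies were 0.225 to 9.4. Reads that hold no differing base cannot be divided by sequence between the mitochondrial gene and its copy. Levels and single-gene tests of the 5 mRNAs with few counts are therefore given below as RPKM with limma on log2(RPKM + 0.1), and those of the other 8 mRNAs, the rRNAs and the tRNAs as CPM (counts scaled to the total of the library and its TMM factor; sums over a class use the total alone) with edgeR's quasi-likelihood test. Where all 13 mRNAs are tallied or summarised on counts, these 5 are among them and rest on the few reads counted. Both use Benjamini-Hochberg adjustment over all genes tested and a threshold of 0.05. The RPKM of the 5 mRNAs leaves out the reads given to their copies. The RPKM of the copies varied widely between libraries, and its part in the changes of these mRNAs was not tested.

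Some mRNAs also share bases on 1 precursor. The last 43 bases of mt-Atp8 are the first of mt-Atp6, and mt-Nd4l and mt-Nd4 share 7 bases. In mouse mitochondria each of these pairs is translated from 1 bicistronic mRNA, so the members of a pair are 1 RNA counted as 2 genes. The ends of the upstream genes are shown with the shared bases in capitals (chrMT:7897-7969 and chrMT:10137-10173, plus strand).
mt-Atp8: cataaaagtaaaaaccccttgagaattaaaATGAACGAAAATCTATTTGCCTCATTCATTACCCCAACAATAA
mt-Nd4l: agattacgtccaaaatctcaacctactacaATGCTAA

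The annotated mt-Cytb, mt-Co3 and mt-Nd4 end in an incomplete stop codon, which the added poly(A) tail completes. For mt-Cytb the last base, T, is in capitals (chrMT:15259-15288, plus strand).
mt-Cytb: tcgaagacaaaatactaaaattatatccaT

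Mitochondrial mRNAs took 6.75% of all counts on average (3.47% to 9.20% over 40 libraries) and 11.6% of the reads behind RPKM (6.23% to 15.7%). The rRNAs took 0.921% of counts (0.531% to 1.39%). The tRNAs summed to 94.8 CPM (28.8 to 165).

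CLA mice had a lower share of mitochondrial mRNA than their controls at both times. At 108 h the mRNA share of counts was 7.46%, 6.52%, 6.63%, 6.69% and 7.02% in the control libraries and 4.92%, 3.85%, 5.01%, 5.89% and 4.81% in the CLA libraries. The values at 132 h were 7.01%, 6.92%, 8.04%, 8.70% and 8.33% in control and 6.78%, 4.49%, 3.47%, 5.78% and 3.82% in CLA. The groups did not overlap at either time, although the highest CLA library at 132 h came close to the lowest control. The means were 6.86% ± 0.379 and 4.90% ± 0.727 (SD, n = 5 each) at 108 h, a ratio of 0.714, and 7.80% ± 0.800 and 4.87% ± 1.39 (SD, n = 5 each) at 132 h, a ratio of 0.624. Within runs of mouse numbers the ratio at 108 h was 0.657 (3 CLA and 2 control libraries) and 0.790 (2 and 3). At 132 h it was 0.706 (3 CLA and 2 control libraries), 0.691 (1 and 2) and 0.459 (1 and 1). The last 2 ratios rest on a single CLA library each. Less mitochondrial RNA per cell and fewer cells rich in it cannot be told apart in RNA from a whole gland.

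The rRNA share of counts did not follow the mRNA share. It was 0.888% ± 0.240 in control and 0.907% ± 0.0920 in CLA at 108 h, and 0.785% ± 0.115 and 0.785% ± 0.223 at 132 h (SD, n = 5 each), with overlapping libraries at both times. The direction at 108 h was not the same in each run: the ratio of CLA to control was 0.822 in the first and 1.20 in the third.

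Estrogen mice had a lower mRNA share at 60 h. It was 7.80%, 8.46%, 9.20%, 9.01% and 8.03% of counts in the control libraries and 5.48%, 7.25%, 7.21%, 7.17% and 6.75% in the estrogen libraries, with no overlap. The means were 8.50% ± 0.604 and 6.77% ± 0.749 (SD, n = 5 each), a ratio of 0.797. At 84 h control libraries held 7.63%, 7.41%, 7.46%, 7.56% and 7.52% and estrogen libraries 5.73%, 7.13%, 6.32%, 6.64% and 8.03%. The control libraries at 84 h lay within a very narrow range, and the highest estrogen library was above all of them. The ratio of the means was 0.900.

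**Figure D2:**
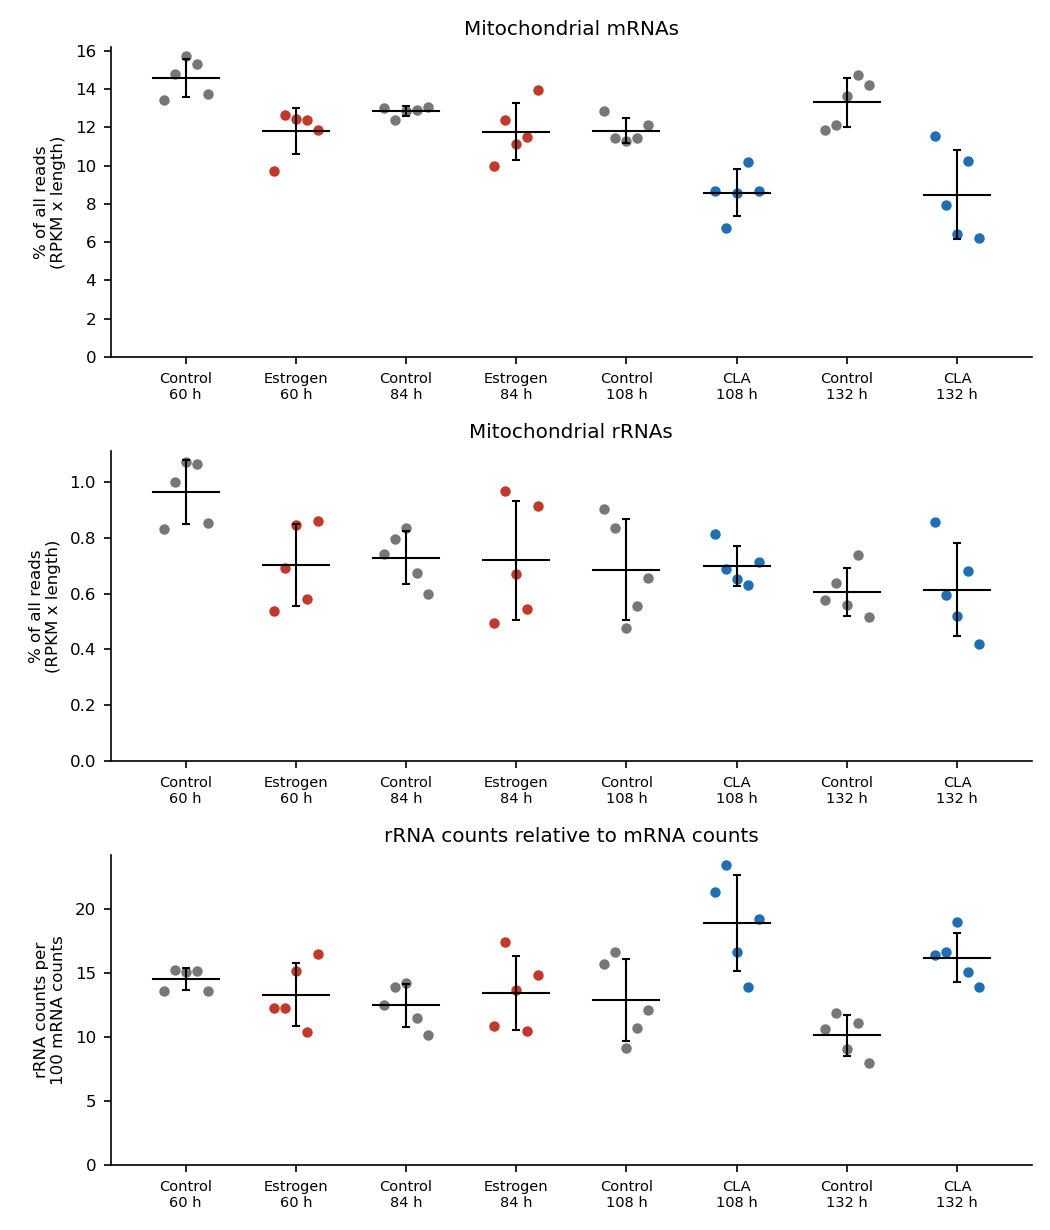
Mitochondrial mRNA (top) and rRNA (middle) as a percentage of the reads behind RPKM, and rRNA counts per 100 mRNA counts (bottom), in the 8 groups of 5 mice. Points are libraries, lines the means and bars the SD. The mRNA share is lower in CLA than in control libraries at both times without overlap; rRNA per 100 mRNA counts is higher in all CLA libraries at 132 h (13.9 to 19.0) than in their controls (8.00 to 11.9).

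In the CLA comparisons nearly all mRNAs fell. On RPKM, limma found 13 of 13 mRNAs lower at 108 h, where 15.5% of all genes tested were called lower, and 11 of 13 at 132 h, where 16.5% were. On counts, edgeR found 10 lower at 108 h (23% of all genes tested) and 11 at 132 h (29%), and none higher; of these, 8 and 7 were among the 8 mRNAs whose counts hold a large part of their reads. The median log2 fold change of the mRNAs on counts was -0.562 at 108 h and -0.733 at 132 h, beside -0.0129 and -0.0286 over all genes tested. On RPKM it was -0.505 and -0.621. On RPKM without further scaling the median of all genes at 132 h was 0.129, so a value of 0 on that scale lies below the middle of the genes; scaled to that middle by edgeR's TMM factors, the number of mRNAs called was the same at both times. Adding the run of mouse numbers to the model left 10 mRNAs lower at each time.

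mt-Cytb, the only mitochondrially encoded subunit of complex III, fell at both times. Its level at 108 h was 20273, 17201, 17291, 17823 and 18543 CPM in control and 11637, 9839, 12513, 13978 and 11558 CPM in CLA libraries. At 132 h mt-Cytb was at 18926, 18959, 23814, 28563 and 24761 CPM in control and 16802, 10329, 7769, 13834 and 10554 CPM in CLA libraries. Every CLA library lay below every control library of its time. The log2 fold change was -0.62 ± 0.11 (SE; adjusted p = 0.000113) at 108 h and -0.97 ± 0.18 (adjusted p = 0.000115) at 132 h.

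Complex I, NADH dehydrogenase, has the most mitochondrially encoded subunits. mt-Nd4, a proton-pumping membrane subunit, was at 8194, 7122, 7046, 7237 and 7700 CPM in control and 4760, 3926, 4944, 5766 and 4951 CPM in CLA libraries at 108 h. The levels at 132 h were 7348, 7613, 9291, 11119 and 9523 CPM in control and 6836, 4252, 3416, 5609 and 4036 CPM in CLA libraries. The groups did not overlap, and mt-Nd4 fell by 0.62 ± 0.11 (SE, adjusted p = 9.6e-05) and by 0.91 ± 0.17 (adjusted p = 0.000126) on the log2 scale. mt-Nd5, another proton-pumping subunit, ran from 5895 to 8273 CPM in control and from 3144 to 6339 CPM in CLA libraries at 108 h, with overlap, and fell by 0.66 ± 0.16 (adjusted p = 0.00201). At 132 h mt-Nd5 ran from 6237 to 8953 CPM and from 2924 to 7205 CPM, also with overlap, and fell by 0.75 ± 0.17 (adjusted p = 0.00108).

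The remaining subunits of complex I behaved alike in direction. mt-Nd2 fell by 0.65 ± 0.13 (SE, adjusted p = 0.000416) at 108 h and by 0.73 ± 0.18 (adjusted p = 0.00187) at 132 h. mt-Nd1, the subunit nearest the quinone site, was at 9326, 8003, 8880, 8448 and 9174 CPM in control and 6706, 5607, 7231, 7881 and 6721 CPM in CLA libraries at 108 h. These groups did not overlap, and the change, -0.36 ± 0.11 (adjusted p = 0.00845), was the smallest among the 8 mRNAs tested on counts at that time. mt-Nd1 fell by 0.55 ± 0.17 at 132 h (adjusted p = 0.0103), with overlap. Without the libraries of high keratin signal in that table the call of mt-Nd1 at 108 h was lost (-0.35, adjusted p = 0.0834). That fit left out 3 of the 5 control libraries at 108 h and no CLA library.

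mt-Nd4l and mt-Nd3 were read on RPKM. mt-Nd4l was at 4728, 3796, 4470, 4414 and 4112 RPKM in control and 2659, 2030, 3394, 3505 and 2314 RPKM in CLA libraries at 108 h. At 132 h mt-Nd4l stood at 5019, 4689, 5535, 5643 and 5910 RPKM in control and 3871, 2923, 1662, 3156 and 1999 RPKM in CLA libraries. No CLA library reached a control library, and mt-Nd4l fell by 0.66 ± 0.13 (SE, limma adjusted p = 0.000385) and by 1.04 ± 0.16 (adjusted p = 2.4e-05), the largest mRNA change on RPKM at 132 h. mt-Nd3 was at 3025, 2731, 2762, 2648 and 3164 RPKM in control and 2512, 1437, 1650, 2640 and 2559 RPKM in CLA libraries at 108 h, and fell by 0.45 ± 0.16 (adjusted p = 0.0311). The control and CLA libraries of mt-Nd3 nearly touched, and the call was lost when either of 2 control libraries (replicates 1 and 5) or 2 CLA libraries (replicates 2 and 3) was left out (adjusted p = 0.0609 to 0.103). At 132 h mt-Nd3 overlapped between the groups and was not called (-0.25 ± 0.18, adjusted p = 0.282).

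mt-Nd6 is the only mRNA read from the opposite strand. It was at 3296, 2727, 3333, 3183 and 3277 CPM in control and 2160, 1491, 2123, 2713 and 2236 CPM in CLA libraries at 108 h. The levels at 132 h were 3021, 2658, 3577, 3684 and 3488 CPM and 3234, 1780, 1497, 2529 and 1632 CPM. The groups were separate at 108 h by a narrow margin and overlapped through 1 CLA library at 132 h. The log2 fold changes, -0.56 ± 0.13 (SE, adjusted p = 0.00120) and -0.64 ± 0.17 (adjusted p = 0.00300), lay among those of the mRNAs of the other strand.

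Complex IV, cytochrome c oxidase, has mt-Co1, mt-Co2 and mt-Co3 as its mitochondrially encoded core. mt-Co1 was at 15262, 12950, 13319, 13793 and 14667 CPM in control and 9579, 8037, 10611, 12225 and 9036 CPM in CLA libraries at 108 h. The levels at 132 h were 15072, 15868, 17775, 21607 and 18750 CPM and 13075, 8952, 6694, 11129 and 8096 CPM. Control and CLA libraries were separate at both times, and mt-Co1 fell by 0.50 ± 0.12 (SE, adjusted p = 0.00165) and by 0.91 ± 0.16 (adjusted p = 6.1e-05). mt-Co2, which receives electrons from cytochrome c, fell by 0.38 ± 0.09 on log2 RPKM at 108 h (limma adjusted p = 0.00147) and by 0.58 ± 0.15 at 132 h (adjusted p = 0.00365). mt-Co3 was at 15838, 14560, 12238, 12828 and 15169 RPKM in control and 11631, 9587, 11369, 13362 and 12972 RPKM in CLA libraries at 108 h. These groups overlapped, the change was the smallest on RPKM of the 5 mRNAs with few counts (-0.26 ± 0.10, adjusted p = 0.0352), and leaving out any 1 of 6 libraries, control replicates 1, 2 and 5 or CLA replicates 1, 2 and 3, ended the call (adjusted p = 0.0616 to 0.111). At 132 h mt-Co3 fell by 0.62 ± 0.17 (adjusted p = 0.00429).

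Of ATP synthase, mt-Atp6, which forms part of the proton channel, was at 28211, 25660, 24184, 25028 and 25900 RPKM in control and 19130, 14622, 17293, 21517 and 18964 RPKM in CLA libraries at 108 h. At 132 h it was at 25229, 27238, 28950, 30045 and 31344 RPKM and at 24387, 16423, 14181, 22170 and 10071 RPKM. No library of one group reached the other, and mt-Atp6 fell by 0.50 ± 0.10 (SE, limma adjusted p = 0.000375) and by 0.78 ± 0.18 (adjusted p = 0.00109).

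mt-Atp8, carried on the same mRNA, was more uneven. It was at 1771, 1457, 1589, 1539 and 1554 CPM in control and 1037, 387, 574, 1277 and 920 CPM in CLA libraries at 108 h. At 132 h it was at 1116, 936, 1179, 775 and 1110 CPM in control and 1388, 876, 700, 1103 and 187 CPM in CLA libraries. mt-Atp8 fell at 108 h (-0.92 ± 0.25, edgeR adjusted p = 0.00529, no overlap), a call lost without the libraries of high keratin signal (adjusted p = 0.0565). At 132 h its libraries overlapped widely and it was not called (-0.28 ± 0.31, adjusted p = 0.465). Per 100 RPKM of mt-Atp6, mt-Atp8 stood at 23.5 ± 0.911 in control and 17.9 ± 5.74 in CLA at 108 h, and at 13.4 ± 2.94 and 18.7 ± 6.37 at 132 h (SD, n = 5 each). The difference between those groups changed direction between the times and was within the spread of the CLA libraries.

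**Figure D3:**
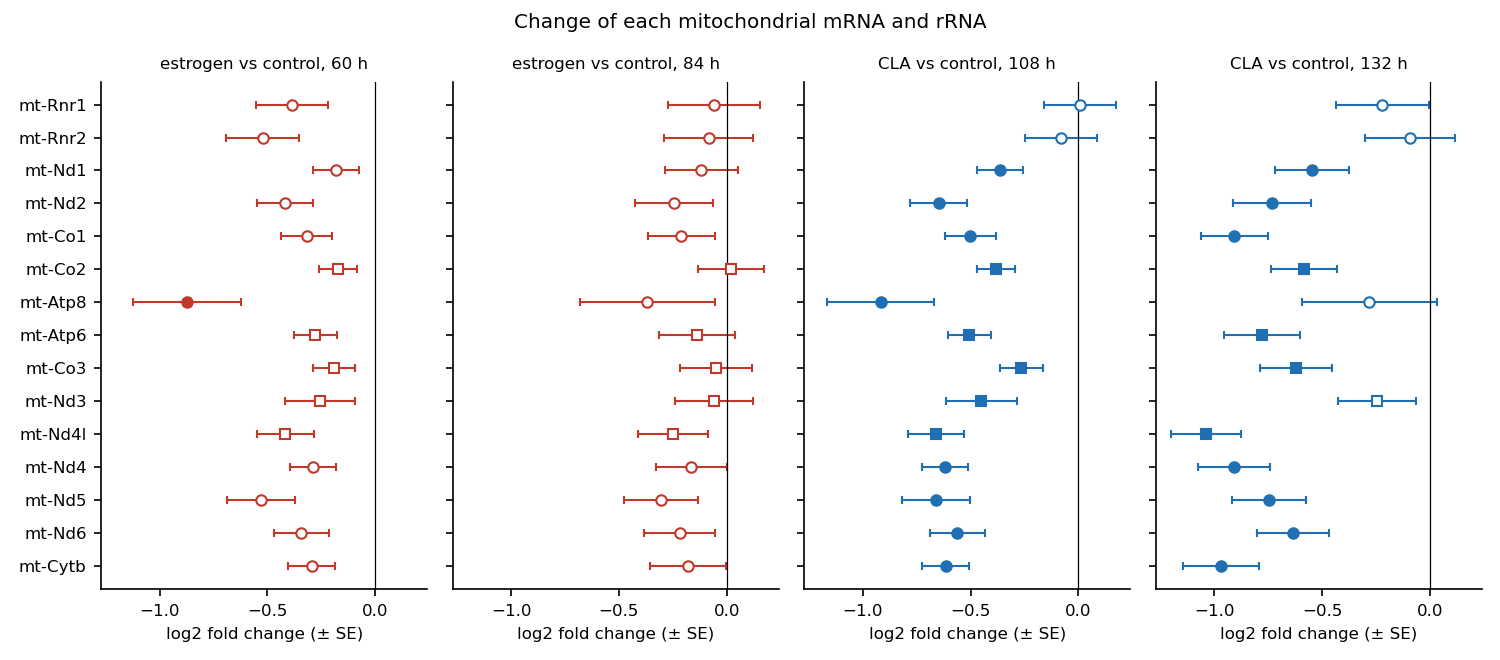
Log2 fold change (treated over control, bars SE) of the 13 mRNAs and 2 rRNAs of the mitochondrial genome in the 4 comparisons. Circles are counts (edgeR), squares RPKM (limma) for the 5 mRNAs with few counts, and filled symbols passed an adjusted p of 0.05. In both CLA comparisons the mRNAs lie below 0 and the 2 rRNAs near it.

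Neither rRNA was called in a CLA comparison. mt-Rnr1, the RNA of the small mitochondrial ribosomal subunit, was at 4123, 3728, 2172, 2519 and 2970 CPM in control and 3371, 3439, 2996, 2847 and 2939 CPM in CLA libraries at 108 h (log2 fold change 0.01 ± 0.17 SE, adjusted p = 0.982). mt-Rnr2, the RNA of the large subunit, was at 7464, 6476, 3936, 4549 and 5371 CPM and at 6168, 4894, 4931, 4865 and 5471 CPM (-0.08 ± 0.17, adjusted p = 0.725). For both rRNAs the 2 control libraries of the first run of mouse numbers were the highest of the 10 and the control of the third run with 2172 or 3936 CPM the lowest. At 132 h the log2 fold changes were -0.22 ± 0.21 (adjusted p = 0.399) for mt-Rnr1 and -0.09 ± 0.21 (adjusted p = 0.729) for mt-Rnr2.

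Set against the mitochondrial mRNAs, the rRNAs rose with CLA. The number of rRNA counts per 100 mRNA counts was 15.7, 16.6, 9.17, 10.7 and 12.1 in control and 21.3, 23.5, 16.6, 13.9 and 19.2 in CLA libraries at 108 h. The ratios at 132 h were 10.6, 11.9, 9.04, 11.1 and 8.00 in control and 16.4, 16.6, 19.0, 15.1 and 13.9 in CLA libraries. The groups overlapped at 108 h and were separate at 132 h. At 108 h the first 2 control and first 3 CLA values are from the first run of mouse numbers, where the lowest CLA library lay just below the higher control (both 16.6), and the others are from the third run, where the groups were separate. With the summed mRNA counts as library size, mt-Rnr1 rose by 0.61 ± 0.18 (SE, adjusted p = 0.00412) and mt-Rnr2 by 0.52 ± 0.16 (adjusted p = 0.00782) at 108 h. At 132 h they rose by 0.60 ± 0.17 (adjusted p = 0.00215) and 0.72 ± 0.16 (adjusted p = 0.000341). On this scale 63.4% of all genes tested were called higher at 108 h, with 2.67% lower, and 71.8% at 132 h, with 3.78% lower, since the mRNAs it is scaled to fell, so a rise on it is shared with most genes.

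Among the mRNAs themselves the proportions moved little. Scaled to their own sum, no mRNA was called in either CLA comparison on counts. On RPKM scaled the same way, where 59% of all genes were called at 108 h and 65.1% at 132 h, limma called mt-Atp8 (-0.48 ± 0.18 SE, adjusted p = 0.0306) and mt-Nd4 (-0.20 ± 0.08, adjusted p = 0.0340) lower, and mt-Co3 (0.22 ± 0.08, adjusted p = 0.0310) and mt-Nd1 (0.19 ± 0.08, adjusted p = 0.0413) higher at 108 h. At 132 h mt-Nd4l was lower (-0.37 ± 0.12, adjusted p = 0.00819), and mt-Nd3 (0.43 ± 0.12, adjusted p = 0.00446) and mt-Nd1 (0.25 ± 0.10, adjusted p = 0.0385) were higher. Of these, only mt-Nd1 was called at both times.

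The effect of CLA on mitochondrial transcripts was not shown to differ between 108 h and 132 h. In the test of that difference edgeR called 0 of the 37 rows, with 3 at an unadjusted p under 0.05 and a lowest adjusted p of 0.208, DESeq2 and limma on RPKM also called 0, and 0% of all genes tested on counts and 0.01% on RPKM were called.

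With estrogen, 1 mRNA fell at 60 h and none at 84 h. At 60 h edgeR called mt-Atp8 lower, where 2.42% of all genes tested were called lower and 4.07% higher. mt-Atp8 was at 2044, 2188, 2262, 2247 and 1246 CPM in control and 794, 1209, 1162, 1402 and 882 CPM in estrogen libraries. The groups overlapped through the lowest control library, and the log2 fold change was -0.87 ± 0.25 (SE, adjusted p = 0.0443). The call was lost without a count filter (adjusted p = 0.0805), on RPKM (adjusted p = 0.0583) and without the libraries of high keratin signal (adjusted p = 0.144). That last fit left out 1 estrogen library at 60 h and 3 control libraries at 108 h, which share the estimate of the spread. The mt-Atp8 call was also lost when any 1 of control replicates 1 to 4 or estrogen replicates 1, 2, 3 and 5 was left out (adjusted p = 0.0636 to 0.114). Scaled to the summed mitochondrial mRNA, mt-Atp8 was called lower (-0.55 ± 0.18, adjusted p = 0.0284). On that scale too the call was lost without the libraries of high keratin signal (adjusted p = 0.0898). The same held when any 1 of control replicates 2 to 4 or estrogen replicates 1 and 5 was left out (adjusted p = 0.0570 to 0.0909).

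The other mRNAs had negative fold changes at 60 h that did not pass the test. mt-Nd5 was at -0.53 ± 0.16 (SE, adjusted p = 0.0510), mt-Nd2 at -0.42 ± 0.13 (adjusted p = 0.0585), mt-Nd6 at -0.34 ± 0.13 (adjusted p = 0.108) and mt-Co1 at -0.32 ± 0.12 (adjusted p = 0.108). mt-Cytb was at 21382, 23821, 26398, 25872 and 23471 CPM in control and 15353, 21828, 20371, 21417 and 19516 CPM in estrogen libraries (-0.30 ± 0.11, adjusted p = 0.106), and 2 estrogen libraries lay just above the lowest control. On RPKM limma called 3 mRNAs lower (1.24% of all genes tested): mt-Nd2 (-0.47 ± 0.12, adjusted p = 0.0402), mt-Nd4 (-0.44 ± 0.12, adjusted p = 0.0436) and mt-Nd5 (-0.51 ± 0.14, adjusted p = 0.0456). The median log2 fold change of the mRNAs on counts was -0.295, beside -0.002 over all genes tested.

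mt-Rnr2 was at 7383, 8907, 9200, 9851 and 7178 CPM in control and 4031, 6083, 6703, 5487 and 7267 CPM in estrogen libraries at 60 h. Only the highest estrogen library reached the lowest control, but the difference was not called (-0.52 ± 0.17 SE, adjusted p = 0.0644). mt-Rnr1 was not called either (-0.39 ± 0.17, adjusted p = 0.170). At 84 h edgeR called 0 of 26 mitochondrial transcripts tested, with 0 at an unadjusted p under 0.05 and a lowest adjusted p of 0.277, while 1.97% of all genes tested were called lower and 3.45% higher. DESeq2 also called 0, and limma on RPKM called the tRNA mt-Tk alone, named after its value was seen (-2.89 ± 0.79, adjusted p = 0.0443; 0.618% of all genes lower). mt-Tk had a mean count of 3.8 over all libraries (0 to 12), so its fold change rests on few reads and depends on the pseudocount. The median log2 fold change of the mRNAs at 84 h was -0.211. In the test of the difference between 84 h and 60 h edgeR called 0 of the 37 rows, with 1 at an unadjusted p under 0.05 and a lowest adjusted p of 0.633, DESeq2 and limma on RPKM also called 0, and 0.0056% of all genes tested were called, so the estrogen effect was not shown to differ between the times.

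The effects of CLA and estrogen were compared for the pairs of times that share a deposited table, in a fit of all 40 libraries. For CLA at 132 h against estrogen at 84 h, edgeR called 7 of the 27 rows tested, where 40.4% of all genes tested differed (19.6% lower and 20.8% higher). The CLA effect was the more negative for mt-Co1 (difference in log2 fold change -0.68 ± 0.19 SE, adjusted p = 0.0048), mt-Cytb (-0.77 ± 0.20, adjusted p = 0.00266), mt-Nd4 (-0.72 ± 0.20, adjusted p = 0.00352), mt-Nd4l and mt-Co2. For mt-Nd4l and mt-Co2 the counts gave -0.84 ± 0.26 (adjusted p = 0.00909) and -0.80 ± 0.32 (adjusted p = 0.0458) from few counts, and RPKM gave -0.79 ± 0.21 (limma adjusted p = 0.00359) and -0.60 ± 0.18 (adjusted p = 0.00737). It was the more positive for the tRNAs mt-Tg and mt-Th. Without the libraries of high keratin signal 4 rows were called, and without CLA replicate 1 at 132 h 12 were. On RPKM 11 rows were called at these times, where 36.2% of all genes were. For CLA at 108 h against estrogen at 60 h only mt-Tg was called, on counts (32.4% of all genes) as on RPKM (26.5%). Treatment, hours on treatment and the run of mouse numbers all differ between these effects and cannot be told apart.

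The tRNAs formed a small and uneven class. Counts held 1.41% of the reads behind the RPKM of mt-Ts1 and 79.7% for mt-Tc. mt-Ts1, named after its values were seen, ranked 4 among the tRNAs in mean RPKM (71.6) with a mean count of 2.6, so shares of counts understate it. mt-Te, mt-Tc and mt-Tq, the tRNAs for glutamate, cysteine and glutamine, held 87.7% of all tRNA counts, and mt-Te alone 64.5%. All 3 are read from the minus strand, opposite to the mRNAs other than mt-Nd6, and mt-Te directly abuts mt-Nd6, upstream of it on that strand (mt-Nd6 chrMT:13552-14070, mt-Te chrMT:14071-14139). mt-Tg lies between mt-Co3 and mt-Nd3 (chrMT:9391-9458, plus strand), and mt-Th, mt-Ts2 and mt-Tl2 follow one another from 11546 to 11741, between mt-Nd4 and mt-Nd5. The 3 most counted tRNAs and those called below are printed, with the anticodon in capitals. It was not marked for mt-Ts2, which lacks the standard cloverleaf form.
mt-Te: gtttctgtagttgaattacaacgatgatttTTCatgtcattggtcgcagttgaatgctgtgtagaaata
mt-Tc: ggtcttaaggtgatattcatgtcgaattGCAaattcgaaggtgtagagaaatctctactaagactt
mt-Tq: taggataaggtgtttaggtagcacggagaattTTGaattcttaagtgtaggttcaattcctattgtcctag
mt-Tg: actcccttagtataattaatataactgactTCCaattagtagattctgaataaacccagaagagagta
mt-Th: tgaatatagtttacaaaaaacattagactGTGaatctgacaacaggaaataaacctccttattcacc
mt-Ts2: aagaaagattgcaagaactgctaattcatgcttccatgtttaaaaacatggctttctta
mt-Tl2: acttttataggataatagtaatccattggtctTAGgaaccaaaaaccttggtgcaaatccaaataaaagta
mt-Ti: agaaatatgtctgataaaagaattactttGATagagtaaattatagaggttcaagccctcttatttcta
mt-Ta: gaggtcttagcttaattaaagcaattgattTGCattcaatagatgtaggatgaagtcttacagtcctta

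Mature tRNAs are 59 to 75 bases long and carry no poly(A) tail, and whether a read came from a mature tRNA or a precursor cannot be told from a count per gene. mt-Tw, mt-Tn, mt-Ty and mt-Td had 0 counts in all libraries, which at the lowest depth allows up to 0.165 CPM (3 counts, counting error only). 3 of those 4 were above 0 on RPKM.

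At 60 h estrogen mice had less tRNA signal. The class summed to 124, 140, 160, 165 and 105 CPM in control and 57.9, 86.4, 90.4, 87.6 and 75.4 CPM in estrogen libraries, with no overlap. The means were 139 ± 25.0 and 79.6 ± 13.4 CPM (SD, n = 5 each). Of 12 tRNAs tested, edgeR called 6 lower, beside the 2.42% of all genes.

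mt-Tg, the glycine tRNA, had counts of 123, 194, 192, 159 and 72 in control and 15, 20, 30, 25 and 22 in estrogen libraries at 60 h. These groups were far apart, mt-Tg fell by 2.77 ± 0.49 on the log2 scale (SE, adjusted p = 0.00604), and the call held in every alternative run. mt-Ts2, a serine tRNA, had counts of 28, 41, 35, 44 and 27 in control and 12, 13, 17, 8 and 6 in estrogen libraries and fell by 1.68 ± 0.37 (adjusted p = 0.0144). The call of mt-Ts2 was lost only without all libraries of high keratin signal in the table fitted (adjusted p = 0.0566). These were 1 estrogen library at 60 h and 3 control libraries at 108 h. mt-Tl2, a leucine tRNA, had counts of 31, 26, 29, 25 and 26 and of 7, 11, 15, 14 and 8 and fell by 1.36 ± 0.32 (adjusted p = 0.0212), a call lost without estrogen replicate 1 (adjusted p = 0.0643) or 5 (adjusted p = 0.0554).

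The other 3 calls were less firm. mt-Th, the histidine tRNA, had counts of 16, 38, 25, 26 and 10 in control and 1, 3, 4, 8 and 7 in estrogen libraries and fell by 2.35 ± 0.63 (SE, adjusted p = 0.0340). mt-Tq was at 8.74, 12.8, 14.4, 18.0 and 9.52 CPM and at 3.42, 6.29, 8.12, 7.07 and 7.10 CPM and fell by 0.98 ± 0.26 (adjusted p = 0.0339). mt-Tc fell by 0.69 ± 0.19 (adjusted p = 0.0424), with overlapping libraries. The calls of mt-Th, mt-Tq and mt-Tc were each lost without a count filter (adjusted p = 0.0505, 0.0581 and 0.0665). Each was also lost without all libraries of high keratin signal in the table fitted (adjusted p = 0.0668, 0.0645 and 0.0766). The same held when any 1 of control replicates 2 to 4 or estrogen replicates 1 and 5 was left out (adjusted p = 0.0566 to 0.110). mt-Th was also lost without estrogen replicate 2 (0.0673) or 3 (0.0626), mt-Tq without estrogen replicate 2 (0.0618), and mt-Tc without control replicate 5 (0.0513) or estrogen replicate 4 (0.0691). mt-Te was at 87.2, 84.8, 107, 111 and 63.5 CPM in control and 37.5, 60.0, 51.4, 69.1 and 48.3 CPM in estrogen libraries, overlapped, and just missed the threshold (-0.76 ± 0.23, adjusted p = 0.0523). Scaled to the summed mitochondrial mRNA, 7 of 12 tRNAs were called lower at 60 h, where 0.29% of all genes were lower and 35% higher, and mt-Te was among them (-0.43 ± 0.16, adjusted p = 0.0402). No tRNA was called at 84 h on counts.

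**Figure D4:**
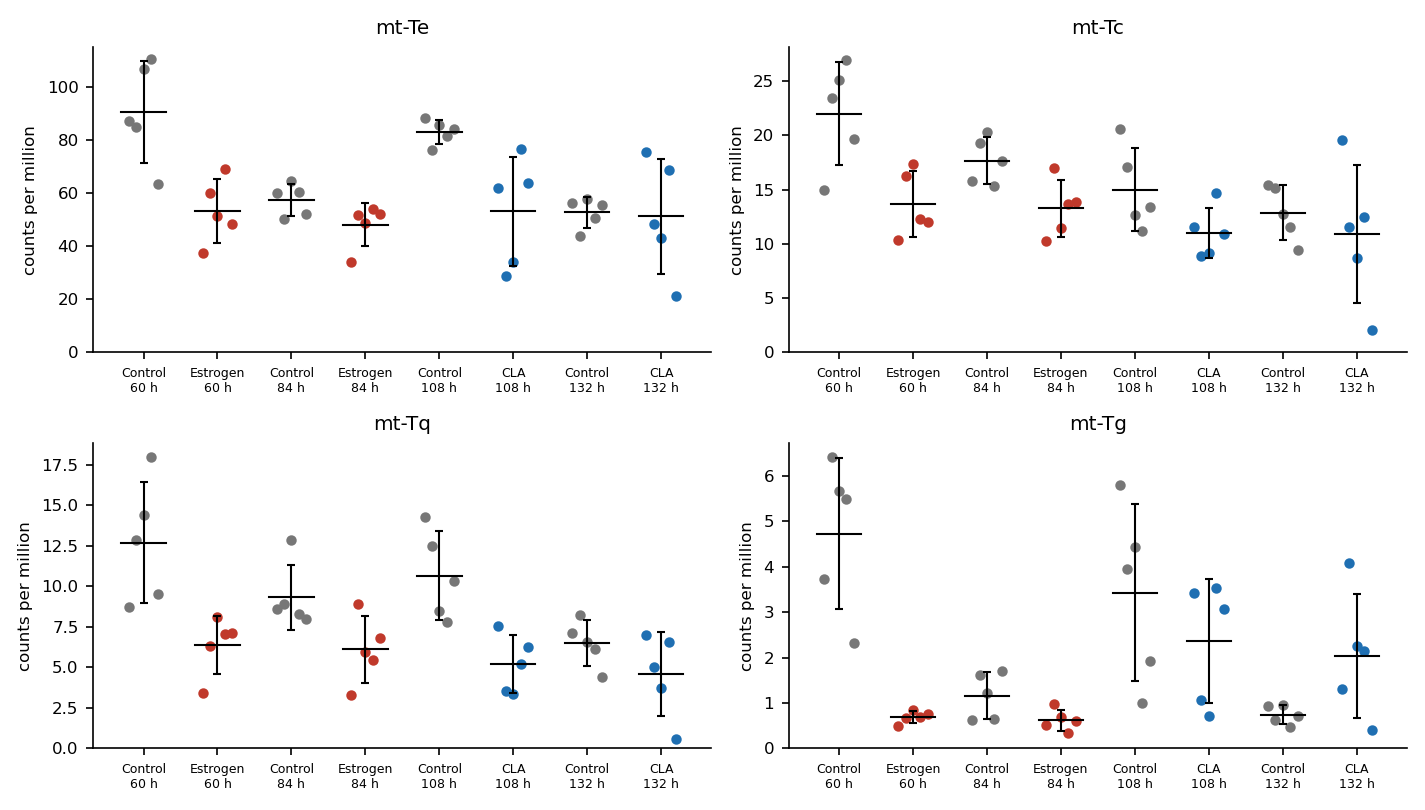
Level in CPM of mt-Te, mt-Tc, mt-Tq and mt-Tg in each library of the 8 groups; points are libraries, lines the means and bars the SD. mt-Tg is high in the control libraries at 60 h and low in the estrogen libraries at 60 h and in the control and estrogen libraries at 84 h.

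With CLA the tRNA class summed to 146, 131, 122, 112 and 124 CPM in control and 103, 51.1, 55.6, 116 and 101 CPM in CLA libraries at 108 h. At 132 h it summed to 90.4, 78.1, 83.5, 75.4 and 76.5 CPM and to 117, 83.4, 69.8, 106 and 28.8 CPM. CLA libraries were scattered at both times, and the groups overlapped. At 108 h edgeR called 4 of 12 tRNAs lower, beside 23% of all genes tested lower: mt-Tq (-1.05 ± 0.26 SE, adjusted p = 0.00305), mt-Ti, for isoleucine (-1.10 ± 0.37, adjusted p = 0.0206), mt-Ta, for alanine (-1.01 ± 0.35, adjusted p = 0.0244), and mt-Te (-0.65 ± 0.23, adjusted p = 0.0251). None of the 4 was called without the libraries of high keratin signal (adjusted p = 0.156 for mt-Tq, 0.392 for mt-Ti, 0.307 for mt-Ta and 0.138 for mt-Te). mt-Te was also lost without CLA replicate 2 (adjusted p = 0.0604) or 3 (adjusted p = 0.0695), mt-Ta without control replicate 2 or CLA replicate 2, and mt-Ti without any 1 of those or CLA replicate 3.

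At 132 h mt-Tg was the only tRNA of 11 tested that was called, and it rose, as 27% of all genes did. Its counts were 23, 19, 25, 8 and 16 in control and 29, 129, 60, 74 and 13 in CLA libraries. Scaled to depth, the fifth CLA library (0.401 CPM) lay below all controls (0.471 to 0.965 CPM) and the other 4 above them (1.30 to 4.09 CPM). The log2 fold change was 1.44 ± 0.45 (SE, adjusted p = 0.0102), and the call was lost without the second CLA library (1.02, adjusted p = 0.0526) and without the libraries of high keratin signal (1.76, adjusted p = 0.0724). Scaled to the summed mitochondrial mRNA, mt-Te (0.73 ± 0.18, adjusted p = 0.000844), mt-Tg (2.33 ± 0.47, adjusted p = 0.00012) and mt-Ts2 (1.35 ± 0.56, adjusted p = 0.0323) rose at 132 h. These are 3 of 11 tRNAs tested, a smaller share than the 71.8% of all genes called higher on that scale. The effect on mt-Tg was more positive with CLA than with estrogen in both tests of that difference (2.23 ± 0.64, adjusted p = 0.00782 for 108 h against 60 h, and 2.34 ± 0.68, adjusted p = 0.00631 for 132 h against 84 h). mt-Th differed in the second (4.44 ± 1.29, adjusted p = 0.00602), a value that depends on the prior count, since the estrogen libraries at 84 h held 0 to 2 counts.

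Over the 4 control groups edgeR called 4 tRNAs of 12 tested, 1 rRNA of 2 and none of the 13 mRNAs. These are 5 of the 27 rows tested, beside 13.4% of all genes tested that were called. They were mt-Tg (adjusted p = 0.00118), mt-Ts2 (adjusted p = 0.00308), mt-Th (adjusted p = 0.00903), mt-Rnr2 (adjusted p = 0.0231) and mt-Te (adjusted p = 0.0362). The tRNA sum averaged 139 ± 25.0 CPM at 60 h, 91.0 ± 5.93 at 84 h, 127 ± 12.7 at 108 h and 80.8 ± 6.19 at 132 h (SD, n = 5 each). The values at 60 h and 108 h come from one deposited table and those at 84 h and 132 h from the other, so the higher pair and the lower pair each share a table. mt-Tg followed the same pattern with some overlap of libraries, with counts of 123, 194, 192, 159 and 72 at 60 h, 19, 34, 30, 20 and 48 at 84 h, 197, 125, 137, 35 and 54 at 108 h, and 23, 19, 25, 8 and 16 at 132 h. Without the control libraries of high keratin signal none of the 5 was called.

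Controls at 132 h against 60 h showed the most differences. There 7 rows were lower, where 4.36% of all genes tested were: mt-Th (-2.88 ± 0.73 SE, adjusted p = 0.0107), mt-Tg (-2.66 ± 0.49, adjusted p = 0.00341), mt-Ts2 (-2.06 ± 0.48, adjusted p = 0.00701), mt-Atp8 (-0.97 ± 0.29, adjusted p = 0.0278), mt-Te (-0.78 ± 0.24, adjusted p = 0.0273), mt-Rnr2 (-0.76 ± 0.19, adjusted p = 0.0106) and mt-Rnr1 (-0.59 ± 0.20, adjusted p = 0.0466). At 84 h against 60 h mt-Tg alone was lower (-2.03 ± 0.47, adjusted p = 0.0417), where 0.258% of all genes were. At 108 h against 60 h edgeR called none, with 10 at an unadjusted p under 0.05 and a lowest adjusted p of 0.0519, where 5.01% of all genes were called. Of the mRNAs, mt-Atp8 was the only one called in these comparisons with 60 h. Its level per 100 RPKM of mt-Atp6 was 22.7 ± 4.29 at 60 h, 16.1 ± 1.90 at 84 h, 23.5 ± 0.911 at 108 h and 13.4 ± 2.94 at 132 h (SD, n = 5 each), again high in one table and low in the other. Each control group has its own time, and age moves with it. The runs of mouse numbers are also unlike. The second run holds 4 of the 5 controls at 60 h, the first 3 of those at 84 h, and the third 3 of those at 108 h. These control comparisons had no term for the run. Among the controls the tRNA sum was higher at 60 h and 108 h than at 84 h and 132 h. Time, age and deposited table move together there and cannot be told apart. In the treated groups the tRNA sum averaged 79.6 ± 13.4 CPM with estrogen at 60 h and 85.3 ± 29.8 CPM with CLA at 108 h. It averaged 75.0 ± 13.3 CPM with estrogen at 84 h and 81.0 ± 34.5 CPM with CLA at 132 h (SD, n = 5 each). Libraries of high keratin signal numbered 0, 1, 3 and 3 at 60, 84, 108 and 132 h. What the tables differ in beyond their times is not given in the sources used here, and its part in these differences was not tested.

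Genes of the nucleus that serve the mitochondrial genome were grouped by role. With CLA 23% of all genes tested were lower and 24.9% higher at 108 h, and 29% and 27% at 132 h, and the counts below are read against these shares. For complex I, 19 of 36 nuclear genes tested were lower at 108 h and 30 at 132 h and none higher, with a median log2 fold change of -0.221 and -0.435. All 4 genes of complex II, which has no mitochondrially encoded subunit, were lower at both times, with a median of -0.607 at 132 h. Of complex III 7 of 9 were lower at both times (median -0.533 at 132 h), of complex IV 8 and 10 of 14 (median -0.486), and of ATP synthase 7 and 10 of 16 with Atp5g1, named after its values were seen, higher at each time (median -0.309). Examples at 132 h were Ndufs1 of complex I (-0.90 ± 0.11 SE), Sdha of complex II (-0.95 ± 0.11), Uqcrc2 of complex III (-0.71 ± 0.14), Cox8b of complex IV (-1.07 ± 0.21) and Atp5b of ATP synthase (-0.77 ± 0.12). The median of each of the 5 complexes at 132 h was less negative than that of the mitochondrial mRNAs on counts (-0.733), and the median of complex II was close to theirs on RPKM (-0.621); these differences were not tested.

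For genes that copy and transcribe mitochondrial DNA, RNA processing and translation, the share called lower was near the 23% of all genes at 108 h and above the 29% at 132 h. Of 22 genes that copy and transcribe mitochondrial DNA, 6 were lower and 3 higher at 108 h and 12 lower and 1 higher at 132 h (median -0.229). Among those lower at 132 h were Polg, the mitochondrial DNA polymerase (-0.33 ± 0.04 SE), Tfb2m, a transcription factor of mitochondrial promoters (-0.47 ± 0.09), and Rrm2b, a ribonucleotide reductase subunit that supplies nucleotides for mitochondrial DNA (-0.64 ± 0.05). Of 29 RNA processing genes 8 were lower and 3 higher at 108 h and 13 lower and 2 higher at 132 h, with Grsf1, an RNA-binding protein of mitochondrial RNA granules (-0.44 ± 0.06), Fastkd1 (-0.65 ± 0.10) and Hsd17b10, a subunit of mitochondrial RNase P (-0.60 ± 0.10), lower at 132 h. The few that rose, named after their values were seen, included at both times Rnaseh1, which removes RNA primers from DNA (0.25 ± 0.07 at 132 h), Slirp, the partner of Lrpprc in mitochondrial mRNA stability (0.40 ± 0.08), and Rexo2, an oligoribonuclease (0.31 ± 0.07). Mitochondrial translation factors were lower for 3 and 9 of 14, with none higher, and Mtif3, an initiation factor, was at -0.48 ± 0.09 at 132 h. Regulators of mitochondrial biogenesis were lower for 4 and 8 of 14 and higher for 2 at each time. Sirt3, a mitochondrial deacetylase, fell by 0.94 ± 0.12 at 132 h, and Pprc1, a coactivator, rose by 0.46 ± 0.11.

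The proteins of the mitochondrial ribosome, the partners of the 2 rRNAs, did not fall in the same proportion. Of 76 genes, 18 were higher and 7 lower at 108 h (median 0.0509), and 4 were higher and 16 lower at 132 h (median -0.0763). At 132 h Mrps31 (-0.43 ± 0.08 SE) and Mrpl49 (-0.37 ± 0.07) fell and Mrpl19 rose (0.43 ± 0.09). These shares lie near or below those over all genes, of which 23% were lower and 24.9% higher at 108 h and 29% and 27% at 132 h.

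Markers of mitochondrial mass other than the respiratory chain were lower for 7 and higher for 6 of 18 at 108 h and lower for 9 and higher for 4 at 132 h, beside 23% lower and 24.9% higher of all genes at 108 h and 29% and 27% at 132 h. The citrate cycle enzymes Ogdh (-1.08 ± 0.14 SE) and Cs (-0.74 ± 0.12) fell at 132 h. Of 15 mitophagy genes 7 and 8 were lower and 3 higher at each time; Pink1, the kinase that marks damaged mitochondria, fell by 0.82 ± 0.09 and the autophagy receptor Sqstm1 rose by 1.24 ± 0.09. The list for release and sensing of mitochondrial DNA, which also holds genes of RNA sensing and general innate signalling, moved the other way. Of 13 tested, 8 and 9 were higher and 1 lower at each time, with a median of 0.588 at 108 h and 0.794 at 132 h. Macrophage markers were higher for 11 and 12 of 13 in the same comparisons. Release of mitochondrial DNA was not measured, and the source of these changes was not tested. Mb21d1, the DNA sensor cGAS, rose by 1.45 ± 0.15, Tmem173, its adaptor STING, by 0.80 ± 0.10, and Bax, which permeabilises the outer mitochondrial membrane, by 0.79 ± 0.08 at 132 h. Mavs, the adaptor of RNA sensing on the outer membrane, was the gene that fell (-0.55 ± 0.08), and is named after its value was seen.

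**Figure D5:**
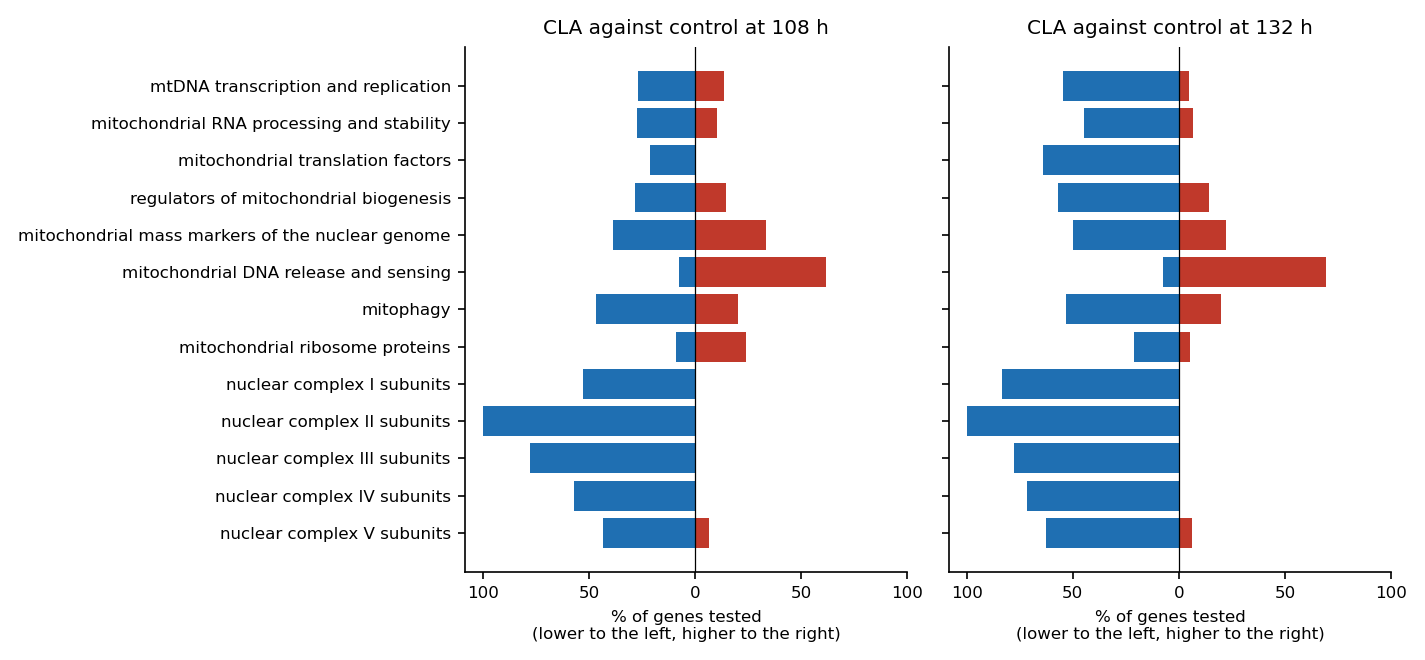
Percentage of tested genes of each list called lower or higher with CLA at 108 h and at 132 h. The nuclear subunits of complexes I to V are called lower only or nearly so, and mitochondrial ribosome genes fall on both sides. The list for release and sensing of mitochondrial DNA, which also holds genes of RNA sensing, is mostly higher.

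With estrogen few of these genes were called, beside 2.42% lower and 4.07% higher of all genes at 60 h and 1.97% and 3.45% at 84 h. At 60 h none of the nuclear subunits of complexes I to IV was called by edgeR, and of ATP synthase Atp5g3 alone rose (0.40 ± 0.06 SE). Of the genes that copy and transcribe mitochondrial DNA, Primpol, a primase-polymerase, rose (0.38 ± 0.10) and Tfb2m fell (-0.23 ± 0.07). Trmt10c, a subunit of mitochondrial RNase P, which cuts the tRNAs out of the precursor, fell by 0.37 ± 0.10, and Lrpprc, which stabilises mitochondrial mRNAs, fell by 0.26 ± 0.07. Gabpa, a transcription factor of nuclear respiratory genes, fell by 0.41 ± 0.08. Among mass markers 1 rose, the phosphate carrier Slc25a3 (0.19 ± 0.05), and 1 fell, and of the mitochondrial ribosome Mrps6 rose (0.45 ± 0.09) and Mrps5 fell (-0.24 ± 0.07). At 84 h 3 genes of all lists were called lower and none higher, Gabpa (-0.29 ± 0.06), Optn, a mitophagy receptor (-0.28 ± 0.08), and Rrm2b (-0.27 ± 0.05), the last 2 named at this time after their values were seen.

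Cell type markers moved with the CLA comparisons. Their calls are read against all genes tested, of which 23% were lower and 24.9% higher at 108 h, and 29% and 27% at 132 h. Those of mature adipocytes summed to 19136 to 23887 CPM in control and 12728 to 17153 CPM in CLA libraries at 108 h, and to 19420 to 28168 and 10578 to 16954 CPM at 132 h, with 11 of 12 markers lower at each time. Brown and beige fat markers summed to 1486 to 1688 and 904 to 1279 CPM at 108 h and to 1185 to 2505 and 658 to 2037 CPM at 132 h, with 4 of 10 lower at each time. Macrophage markers summed to 1024 to 1849 and 2863 to 4306 CPM at 108 h and to 706 to 1228 and 2989 to 5491 CPM at 132 h, with 11 and 12 of 13 higher. Endothelial markers were lower for 9 and 8 of 10, and keratin and other skin markers for 10 of 12 and 14 of 14. Skeletal muscle markers were lower for 7 of 9 at 108 h and 1 of 10 at 132 h. They summed to 4.99 to 134 CPM in control libraries and to 7.01 CPM or less in CLA libraries at 108 h, and to 4.58 to 849 and 6.23 to 45.6 CPM at 132 h, so single control libraries were high. Basal epithelial markers were lower for 5 and 6 of 9. Fibroblast markers were higher for 2 and lower for 1 of 8 at 108 h and higher for 7 at 132 h. Lymphocyte markers were higher for 2 of 10 at 108 h and lower for 1 of 9 at 132 h. With estrogen, luminal epithelial markers summed to 17.6 to 142 CPM in control and 200 to 487 CPM in estrogen libraries at 60 h, and to 21.1 to 202 and 336 to 608 CPM at 84 h, with 9 and 5 of 12 higher. Of all genes tested, 4.07% were higher with estrogen at 60 h and 3.45% at 84 h. None of these markers was at 0 in a whole group, and their part in the differences of mitochondrial transcripts was not tested.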

How the data were processed

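RNA was measured in 40 mammary glands of separate mice, 8 groups of 5, in stranded poly(A) libraries, per the labels' protocols. The authors deposited counts per gene and RPKM values per gene, each in 1 table for 60 h and 108 h and 1 for 84 h and 132 h. The genome build was GRCm38 per the submitters' processing notes; the counting rule is not given in the sources used here. Reads recovered from the deposited RPKM and transcript lengths came to 24.1 M to 52.2 M per library, and counts to 75.3% to 78.6% of them. Of low-level genes with 1 transcript, 91.5% to 92.8% came out as whole reads within 0.05.

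Counts were tested in R 4.3.3 with edgeR 4.0.16 (quasi-likelihood F test, robust, TMM scaling, filterByExpr with a minimum count of 10 and a minimum total of 15), the 4 groups of a table sharing the spread. Differences between effects and between control groups used all 40 libraries in 1 fit. The RPKM values were tested with limma 3.58.1 (trend, robust) on log2(RPKM + 0.1) for genes of at least 0.1 RPKM in 5 libraries; such fold changes understate changes of low genes. The fixed design named edgeR counts for all transcripts; RPKM replaced them for the 5 mRNAs with few counts after the files were seen. Adjusted p-values are Benjamini-Hochberg over all genes tested, with a threshold of 0.05. The scripts were tested on simulated data. Copies in the nucleus were sought with blastn 2.17.0 among GENCODE vM21 transcripts (at least 99% identity over 200 bases).

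All mRNAs and rRNAs were named, with the 5 most counted tRNAs (mt-Te, mt-Tc, mt-Tq, mt-Tl1, mt-Tg), any tRNA called in a treatment comparison, and from each list of nuclear genes up to 3 called genes of smallest p with CLA at 132 h and 2 with estrogen at 60 h; 1 such gene is not reported here. mt-Tl1 had a mean count of 99.1 and was not called in a treatment comparison. Members, lists and markers were chosen with earlier results of these data known. Alternatives were other scalings (RLE, upper quartile, without the mt- rows), filters, DESeq2 1.42.0, limma on RPKM with other pseudocounts or TMM factors, the 2 groups alone, runs of mouse numbers, leaving out each library, and leaving out the libraries whose mean log2 CPM of skin markers was above 1.5. The last of these took away 3 of the 5 control libraries at each of 108 h and 132 h, so a call can also be lost through fewer replicates. The RPKM fits with TMM factors, with the summed mRNA as scale and for differences, and leaving out libraries in differences, were chosen after seeing the data.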

Additional observations from a re-analysis of the deposited data

Results flagged for a closer look

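In each of 152 sets of 5 values, the lowest or highest library was checked for a gap to its neighbour above 0.71 of the whole range (Dixon's 95% value for 5 samples); 7 sets had one, and chance gives about 1 in 20. The first estrogen library at 60 h was lowest in the mRNA share of counts (5.48%) and in mt-Nd4 (6028 CPM). The fifth control library at 60 h was lowest in mt-Atp8 (1246 CPM) and mt-Nd3 (2050 RPKM), the group from which the mt-Atp8 call with estrogen was taken. The fourth control library at 132 h was highest in mt-Rnr1 (4085 CPM), the third control library at 84 h highest in mt-Nd1 (11354 CPM), and the second control library at 108 h lowest in mt-Nd6 (2727 CPM).

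The effects of CLA and estrogen differed in edgeR's test of the difference itself for 1 transcript at 108 h against 60 h and 7 at 132 h against 84 h, where 32.4% and 40.4% of all genes tested differed; these are smaller shares of the transcripts tested. The first was mt-Tg (CLA minus estrogen 2.23 on the log2 scale). The others were mt-Tg (2.34), mt-Th (4.44, from few counts), mt-Co1 (-0.68), mt-Co2 (-0.80), mt-Cytb (-0.77), mt-Nd4 (-0.72) and mt-Nd4l (-0.84).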

How the results depend on the processing

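No paired analysis was possible because replicate numbers only follow the order of the accessions. The number of mRNAs lower with CLA stayed within 1.5 times the main count in every alternative run at 108 h (10; 7 without the libraries of high keratin signal, 13 on RPKM) and at 132 h (11; 9 to 11), and ranged from 9 to 12 at both times when 1 library was left out. With estrogen at 60 h the count of 1 rested on the setting: 0 without a count filter, 0 without the libraries of high keratin signal, 0 on RPKM with TMM factors, 2 with a minimum count of 50, 3 on RPKM, 3 with the 2 groups alone, 7 with DESeq2, and 0 to 3 with 1 library left out; at 84 h it was 0 throughout. Scaled to the summed mitochondrial mRNA, the 1 long transcript called with estrogen at 60 h went to 0 without the libraries of high keratin signal (0 to 1 with 1 library left out, 0 to 0 at 84 h), and the 2 called with CLA at 108 h to 5 on RPKM (2 to 4 with 1 library left out, at 132 h too). Differences between effects with 1 library left out ranged from 0 to 0 between the times of 1 treatment, 1 to 1 for CLA at 108 h minus estrogen at 60 h (3 without the libraries of high keratin signal), and 6 to 12 for CLA at 132 h minus estrogen at 84 h (main 7; 4 without those libraries; 11 on RPKM). The 5 rows that differed among controls went to 0 without those libraries, to 20 with DESeq2's likelihood ratio test on the 20 control libraries, and ranged from 3 to 6 with 1 library left out; the lowest, 3, was without replicate 3 or 4 at 60 h. The causes were not tested.

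The ratio of treated to control mRNA share with 1 library left out was 0.781 to 0.835 for estrogen at 60 h, 0.858 to 0.935 at 84 h, 0.677 to 0.752 for CLA at 108 h and 0.563 to 0.669 at 132 h; that of the rRNA share was 0.686 to 0.774, 0.901 to 1.07, 0.947 to 1.11 and 0.894 to 1.08. The rRNA ratio with CLA at 108 h, 1.02, was 1.37 without the libraries of high keratin signal, 0.822 in the first run and 1.20 in the third.

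With CLA at 108 h, RPKM gave 5243 genes higher and 2859 lower, counts 4293 and 3968, and upper-quartile scaling 3592 and 4907; at 132 h these were 6455 and 3098, 4638 and 4975, and 4151 and 5618. With estrogen at 60 h counts gave 702 higher and 417 lower and upper-quartile scaling 920 and 288; at 84 h counts gave 592 and 339 and RPKM 719 and 116. Depth limits the tRNAs most, several of which had under 50 counts in a library, and p-values measure the spread between these mice.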
